A study of Homo sapiens with 10 samples.

Results

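Among the target genes of the transcription factor p53, MDM2 and SESN1 were higher in the HG group than in the control group by 1.22-fold and 1.23-fold, and the other 8 genes of a set of 10 did not pass the main test (edgeR, TMM), in which 15.4% of all rows passed. With offsets for GC content and transcript length in each of the same 10 libraries, RRM2B, PHLDA3, BBC3 (higher) and TP53I3 (lower) passed as well, 6 of 10 in all, beside 29.3% of all rows. The set holds MDM2, GDF15, BBC3, BAX, FAS, SESN1, ZMAT3, TP53I3, RRM2B and PHLDA3, and leaves out CDKN1A, which encodes p21. The 10 genes were found by their symbol among the 22626 rows of the deposited count table, with 1 row each, and all of them passed the filter on low counts that left 14936 rows for testing. ARPE-19, a spontaneously immortalized line of human retinal pigment epithelium (RPE), was the only cell type in the series. The control group (n = 5) was kept for 48 h in 5.5 mM D-glucose with 32 mM mannitol added, which balances the osmotic load, and the HG group (n = 5) for 48 h in 37.5 mM D-glucose. The comparison asks which transcripts differ under high glucose at like osmotic load, in 1 cell line in culture. The labels do not say that the 5 libraries of a group came from separate cultures, so the p-values measure the spread between these libraries, which may be technical. HG libraries are named here by their deposited column, HG_1 to HG_5, and control libraries by replicate number.

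p53 is held at a low level in unstressed cells by MDM2, a ubiquitin ligase that marks it for degradation. When DNA damage, nucleotide shortage or other stress frees p53 from MDM2, it binds response elements near its target genes and raises their transcription. The targets divide by role into a negative feedback arm (MDM2), genes of apoptosis (BBC3, BAX, FAS), an inhibitor of the AKT kinase (PHLDA3), genes of redox, growth and nucleotide control (SESN1, TP53I3, RRM2B), an RNA-binding protein (ZMAT3) and a secreted stress hormone (GDF15). In the pigment epithelium p53 is known mostly for its part in growth arrest and senescence.

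A p53 response element consists of 2 adjacent half-sites of 10 bases. RefSeq promoter windows (GRCh38.p14, 250 bases before to 50 after a transcript start) were searched for it with no spacer, at most 3 mismatches in 20 bases and the C and G at the core of each half-site kept. The element reads nearly alike on both strands, so 1 strand was searched. It was present in 392 of 35116 windows (1.12%) and in 373 of 27305 genes (1.37%). Of the 10 genes, 8 had windows, and 4 of these 8 (MDM2, SESN1, FAS and GDF15) held a match. The matches are shown because both genes that passed the test are among them, with the element in capitals. In MDM2 it lies at chr12:68808923-68808942, plus strand, with 2 mismatches and outside annotated exons. In SESN1 it lies at chr6:109009018-109009037, minus strand, with 3 mismatches and outside annotated exons. In FAS it lies at chr10:88991309-88991328, plus strand, with 2 mismatches, and in GDF15 at chr19:18386186-18386205, plus strand, with 3 mismatches, both in an annotated exon. A match is a description of the letters and no measure of binding.
MDM2: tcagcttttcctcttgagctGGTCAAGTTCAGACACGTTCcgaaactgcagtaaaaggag
SESN1: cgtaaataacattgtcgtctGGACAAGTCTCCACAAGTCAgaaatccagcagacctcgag
FAS: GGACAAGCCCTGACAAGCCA
GDF15: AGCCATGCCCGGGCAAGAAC

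The libraries held 32448991 to 45864176 counts. HG_1 and control replicate 2 stood apart from the other 8 libraries of the series in their dependence on base composition: their log2 counts rose by 0.188 and 0.17 for each 10 points of transcript GC content, against -0.0916 to -0.00519 in the other 8, where 0 marks the mean over all libraries. Results are therefore given with all 10 libraries and, where they differ, without HG_1 or with an offset for GC content and length in each library. KRT8, KRT18, OTX2 and MITF were detected in every library, while the RPE markers TTR, RPE65 and TYR were at or near 0 counts. The 12 RPE markers summed to 2831 to 3590 CPM in the control group and to 1796 to 2469 CPM in the HG group, most of it KRT8 and KRT18. Of the 9 that were tested, 3 (33.3%) were lower (edgeR adjusted p under 0.05), beside 7.8% of all rows. Of 7 markers of other cell types, PTPRC, PECAM1 and GFAP were at or near 0. The list summed to 233.3 to 255.3 CPM in the control group and 192 to 255.4 CPM in the HG group. Of its 3 tested markers 1 was higher and 1 lower, beside 7.62% and 7.8% of all rows. The part of these marker levels in the results below was not tested.

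Between genes, levels are compared per length, in FPKM (fragments per kilobase of transcript, scaled to library size), and span a wide range. In the control group BAX was highest at 140.6 ± 17.0 FPKM (SD, n = 5), followed by PHLDA3 at 60.0 ± 7.30 FPKM. TP53I3 (34.7 ± 3.03 FPKM), MDM2 (30.1 ± 1.99 FPKM) and RRM2B (28.8 ± 3.96 FPKM) came next, and each overlapped its neighbour in range. Below these came ZMAT3 at 17.1 ± 2.85 and FAS at 14.4 ± 0.428 FPKM, which overlapped, then BBC3 at 11.2 ± 1.04 and SESN1 at 10.8 ± 1.31 FPKM, which overlapped as well. GDF15 was lowest at 0.216 ± 0.0822 FPKM, far under SESN1. In the HG group BAX and PHLDA3 again came first and GDF15 last, with MDM2 (37.1 ± 3.02 FPKM) and RRM2B (36.7 ± 6.66 FPKM) now above TP53I3 (31.2 ± 3.00 FPKM), although the ranges of both overlapped that of TP53I3.

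**Figure D1:**
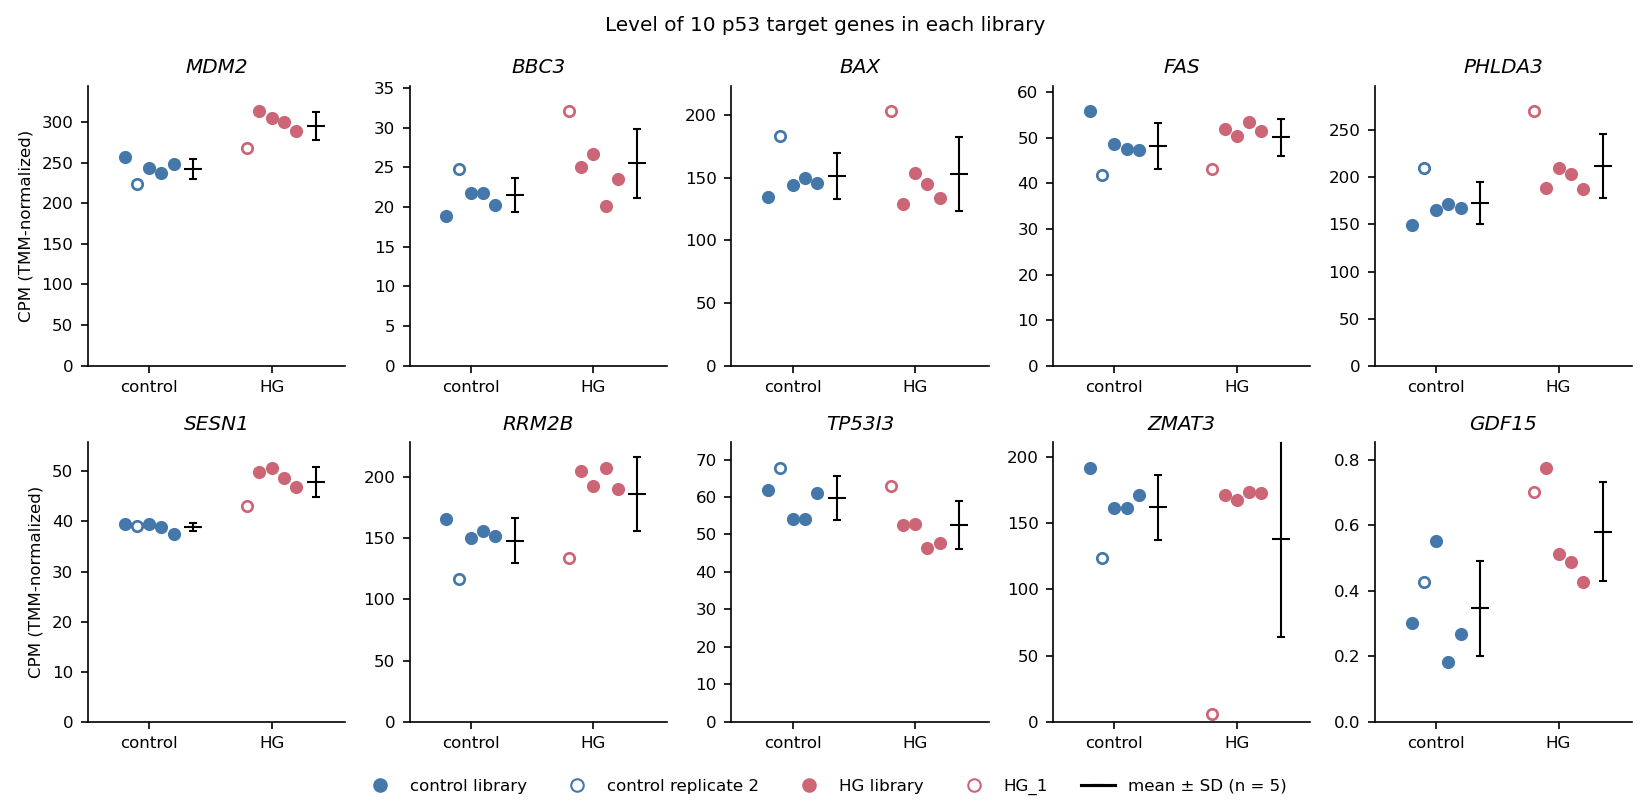
CPM (TMM-normalized, linear axis from 0) of each of the 10 genes in the 5 control and 5 HG libraries, with mean ± SD; open symbols mark control replicate 2 and HG_1. For MDM2 and SESN1 all HG libraries sit above all control libraries, and for ZMAT3 the HG_1 library sits at 5.97 CPM, far under the other 9.

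Within a gene, values below are CPM (counts scaled to library size) after TMM normalization, which scales each library by its total and by the bulk of its genes. MDM2 stood at 257, 223, 243, 238 and 249 CPM in control replicates 1 to 5. In HG_1 to HG_5 it stood at 269, 313, 305, 301 and 289 CPM. Every HG library lay above every control library, and the lowest HG value was that of HG_1. The mean rose from 242 ± 12.8 to 295 ± 17.2 CPM (SD, n = 5 each), a fold change of 1.22 with a 95% interval of 1.12 to 1.32 (log2 fold change 0.29, SE 0.05, adjusted p = 0.00459, edgeR quasi-likelihood test with Benjamini-Hochberg adjustment over all rows). The exact two-sided permutation test gave p = 0.00794, the smallest that 5 libraries against 5 allow. MDM2 lies on chromosome 12 (GRCh38, 68808176 to 68850686, plus strand), and its exons overlap those of CPM, a carboxypeptidase gene, and AC025423.4 on the other strand and the processed pseudogene AC025423.2 on the same strand. Of its 100-base windows, 3.1% also occur in other genes. Since it is not stated whether the counting used strand, reads of such overlapping genes cannot be told apart. In bulk RNA, a higher level in every cell and a larger share of cells with a high level cannot be told apart either.

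SESN1 encodes sestrin 1, a protein that senses amino acids and restrains the growth kinase complex mTORC1. Its 5 control libraries lay close together, at 39.4, 39.1, 39.5, 38.9 and 37.5 CPM. The HG libraries held 43.1, 49.8, 50.7, 48.7 and 46.8 CPM. Again no HG library reached down to the control range, and HG_1 was the lowest of its group. The mean rose from 38.9 ± 0.792 to 47.8 ± 3.01 CPM (SD, n = 5 each), 1.23-fold with a 95% interval of 1.14 to 1.33 (log2 fold change 0.30, SE 0.05, edgeR adjusted p = 0.00327), and the exact permutation p was again 0.00794. In the deposited FPKM values of SESN1 the groups overlapped, since control replicate 1 was listed at 12.5 FPKM and HG_1 at 10.8 FPKM, and the exact permutation p was 0.0238. The ratio of count to FPKM of SESN1, relative to its median over libraries, ran from 0.96 to 1.226, whereas that of MDM2 ran from 0.993 to 1.004. SESN1 lies on chromosome 6 (GRCh38, 108986437 to 109094819, minus strand) and overlaps the antisense gene AL390208.1.

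MDM2 and SESN1 were the 2 of 10 genes with an adjusted p under 0.05, beside 15.4% of all 14936 rows tested, and both were higher, beside 7.62% of all rows that were higher and 7.8% that were lower. They were also the only 2 of the 10 whose groups did not overlap, beside 13.6% of all rows and 6.74% with the HG group above. In FPKM 1 of the 10, MDM2, did not overlap, beside 12.6% of the same rows. The median log2 fold change of the 10 genes was 0.27, beside 0.0013 over all rows. At an unadjusted p under 0.05 the count was 5 of 10, beside 4258 of all 14936 rows. GDF15 was the only gene of the 10 with a fold change above 1.5 and an unadjusted p under 0.05, beside 5.17% of all rows, and none of the 10 had that fold change with an adjusted p under 0.05, beside 3.69% of all rows.

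**Figure D2:**
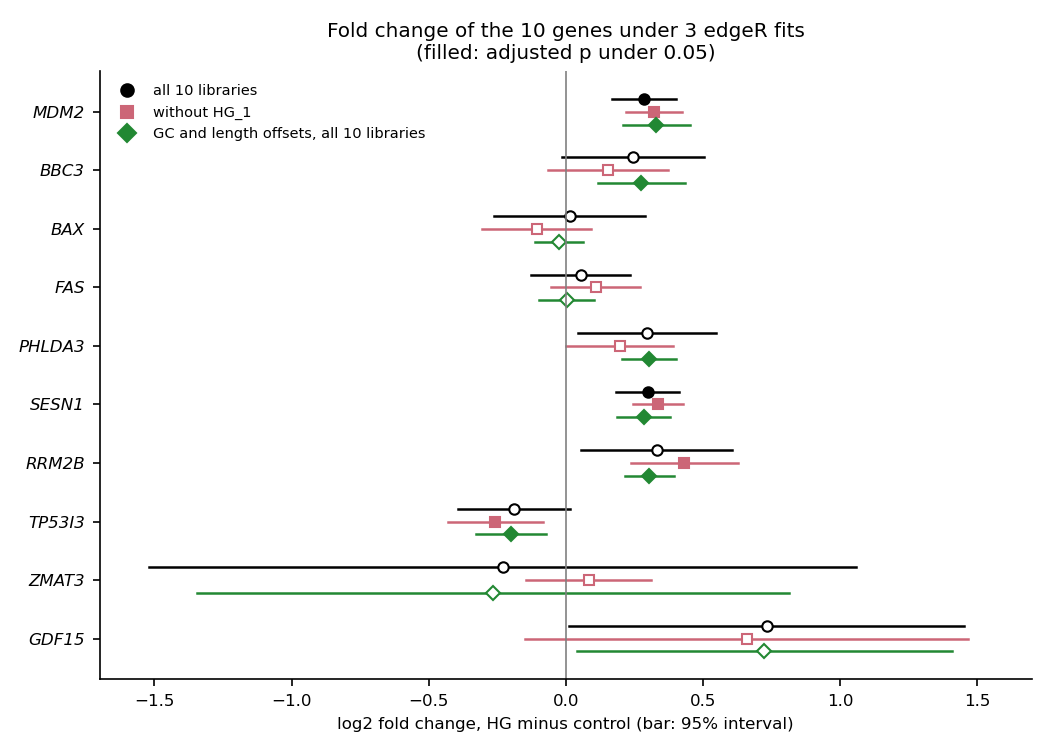
Log2 fold change (HG minus control) of each of the 10 genes with its 95% interval from edgeR, with all 10 libraries (circles), without HG_1 (squares) and with offsets for GC content and length (diamonds). Filled symbols passed an adjusted p of 0.05: MDM2 and SESN1 passed in all 3 fits, and RRM2B and TP53I3 passed in the latter 2 with opposite signs.

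RRM2B encodes the p53-induced small subunit of ribonucleotide reductase, which makes deoxynucleotides outside S phase. It stood at 165, 116, 150.2, 155 and 151 CPM in the control libraries. In HG_1 it stood at 134 CPM, and in HG_2 to HG_5 at 205, 192, 207 and 190.1 CPM. HG_2 to HG_5 lay above all 5 control libraries, while HG_1 lay below 4 of them, so the groups overlapped. With all libraries the fold change was 1.26 (95% interval 1.04 to 1.52, log2 fold change 0.33, SE 0.12) and RRM2B did not pass in edgeR (adjusted p = 0.102), although it did in DESeq2 (adjusted p = 0.0441). Without HG_1 it passed at a log2 fold change of 0.43 (edgeR adjusted p = 0.00725). With the offsets for GC content and length it passed at 0.30 (adjusted p = 0.00018), and after that adjustment the groups no longer overlapped, with 141 to 155 CPM in the control group and 169 to 189.6 CPM in the HG group. At 36.4%, its transcript has the lowest GC content of the 10. The other subunits did not pass: RRM1, the large subunit, stood at a log2 fold change of 0.05 (adjusted p = 0.627), and RRM2, the S-phase small subunit, at -0.02 (adjusted p = 0.908).

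PHLDA3 encodes a small protein with a pleckstrin homology domain that competes with AKT for membrane lipids. Its control libraries held 149, 210.1, 165, 172 and 167 CPM. The HG libraries held 270.1, 189, 210.0, 203 and 187 CPM. The overlap came from control replicate 2, which lay above 4 of the 5 HG libraries, while the other 4 control libraries lay below all HG libraries. The fold change was 1.23 (95% interval 1.03 to 1.46, log2 fold change 0.30, SE 0.11, edgeR adjusted p = 0.112). Without control replicate 2 PHLDA3 passed (log2 fold change 0.38, adjusted p = 0.0336), without HG_1 it did not (0.20, adjusted p = 0.148), and without both it did (0.27, adjusted p = 0.00543). With the GC and length offsets it passed at 0.30 (adjusted p = 0.000385), with 158 to 182 CPM in the control group and 200.5 to 227 CPM in the HG group. Of its 100-base windows, 16.4% also occur in the overlapping transcript AC096677.2, so part of its reads cannot be assigned with certainty. Of its paralogs, PHLDA1 rose from 90.9 ± 6.34 to 139 ± 12.4 CPM (log2 fold change 0.62, SE 0.07, edgeR adjusted p = 0.000297), and PHLDA2 differed by a log2 value of 0.20 (adjusted p = 0.493).

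Of the genes of apoptosis, BBC3 encodes PUMA, a BH3-only protein that neutralizes the survival proteins of the BCL2 family. It stood at 18.9, 24.8, 21.8, 21.7 and 20.3 CPM in the control group. In the HG group it stood at 32.0, 25.0, 26.6, 20.1 and 23.6 CPM. The groups overlapped, and the highest value of each was that of HG_1 or control replicate 2. The fold change was 1.19 (95% interval 0.99 to 1.42, log2 fold change 0.25, SE 0.12, edgeR adjusted p = 0.201). Without HG_1 the log2 fold change of BBC3 was 0.15 (adjusted p = 0.314). It passed only in fits with the GC and length offsets (0.28, adjusted p = 0.014). With these offsets BBC3 ranged from 19.0 to 22.5 CPM in the control group and from 22.7 to 28.3 CPM in the HG group. At 69.7% it has the highest GC content of the 10, and its row overlaps the miRNA genes MIR3190 and MIR3191.

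BAX encodes the pore-forming effector of mitochondrial apoptosis. It was measured at 135, 183, 144, 149.6 and 146 CPM in the control libraries and at 203, 129, 154, 145 and 134 CPM in the HG libraries. The groups lay over each other, with means of 152 ± 18.6 and 153 ± 29.7 CPM (SD, n = 5 each). The log2 fold change of BAX was 0.01 with a 95% interval of -0.26 to 0.29 (edgeR adjusted p = 0.961). With the GC and length offsets it was -0.02 with an interval of -0.11 to 0.06.

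FAS encodes the death receptor CD95. Its values were 55.8, 41.8, 48.7, 47.5 and 47.3 CPM in the control group and 43.1, 52.1, 50.4, 53.4 and 51.5 CPM in the HG group. The groups overlapped over most of their range, and the log2 fold change was 0.06 (95% interval -0.13 to 0.24, edgeR adjusted p = 0.728), or 0.0031 (-0.098 to 0.10) with the offsets. Without control replicate 2 it was 0.01, and without control replicate 1 it was 0.11. FAS overlaps ACTA2 on the other strand. Its ligand gene FASLG had no count in any library, where 3 counts would be 0.0654 to 0.0925 CPM (counting error only). FADD, the adaptor that binds the receptor, and CASP8, the protease it recruits, had log2 fold changes of -0.04 (adjusted p = 0.808) and 0.06 (adjusted p = 0.547).

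TP53I3 encodes a quinone oxidoreductase that raises reactive oxygen species, and it was the only gene of the 10 that was lower in any fit that passed. Control libraries held 61.9, 67.8, 54.1, 54.0 and 61.0 CPM. HG libraries held 62.8, 52.6, 52.7, 46.5 and 47.8 CPM. HG_2 to HG_5 lay below all control libraries, and HG_1 lay within the control range. The log2 fold change was -0.19 (SE 0.09, 95% interval -0.39 to 0.02, edgeR adjusted p = 0.212) with all libraries. TP53I3 passed without HG_1 (-0.26, adjusted p = 0.0417) and with the offsets (-0.20, adjusted p = 0.0222), where the groups still overlapped, at 55.4 to 66.8 CPM in the control group and 49.3 to 56.1 CPM in the HG group. It overlaps FAM228B on the other strand. VAT1, a relative of the same oxidoreductase family, rose from 494 ± 57.2 to 649 ± 69.1 CPM (log2 fold change 0.39, adjusted p = 0.0147).

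ZMAT3 encodes a zinc finger protein that binds RNA and affects splicing and transcript stability. The control libraries held 192, 123, 162, 161 and 171 CPM. HG_2 to HG_5 held 171, 167, 173 and 172 CPM, and HG_1 held 5.97 CPM. That value is 230 counts, against 5324 to 7613 counts in the other 9 libraries. In HG_1 the ratio of count to FPKM of ZMAT3 was 0.333 of its median over libraries, and in the other 9 it was 0.991 to 1.01. Of 10716 rows with at least 200 counts in the other 9 libraries, 7 were 8-fold or more below them in HG_1, and 0 to 8 in each of the other libraries, so ZMAT3 is 1 of few such rows. The cause was not tested. With HG_1 the log2 fold change was -0.23 (SE 0.58, 95% interval -1.52 to 1.06, edgeR adjusted p = 0.851). Without HG_1 it was 0.08 (95% interval -0.14 to 0.31, adjusted p = 0.629), and without HG_1 but with the GC and length offsets 0.04 (-0.057 to 0.13, adjusted p = 0.567). No fit called ZMAT3, and its direction turned with that library.

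GDF15, a secreted member of the TGF-beta superfamily, was near the limit of detection. The control libraries held 10, 19, 23, 6 and 12 counts, and the HG libraries 27, 32, 23, 16 and 14. The groups overlapped. Its level went from 0.347 ± 0.145 to 0.580 ± 0.150 CPM (SD, n = 5 each), and its fitted fold change was 1.66 (95% interval 1.01 to 2.73, log2 fold change 0.73, SE 0.33), with an unadjusted p of 0.0466 and an adjusted p of 0.168 in edgeR. In limma on log2(FPKM + 1), where the added 1 exceeds its level, the log2 difference was 0.17. GDF15 passed in none of the 22 alternative fits that tested it. Its receptor gene GFRAL had no count in any library.

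The 10 genes fell into 2 groups of 5 by GC content, RRM2B, FAS, ZMAT3, MDM2 and SESN1 at 36.4% to 43.4% and TP53I3, BAX, PHLDA3, GDF15 and BBC3 at 58.4% to 69.7%. In HG_1 all 5 GC-poor genes were the lowest of their group and 4 of 5 GC-rich genes the highest. In control replicate 2, 4 of 5 GC-poor genes were the lowest and 4 of 5 GC-rich genes the highest. The median log2 deviation of HG_1 from the other HG libraries was -0.27 over the GC-poor and 0.45 over the GC-rich genes, and that of control replicate 2 was -0.20 and 0.34. Control replicate 1 deviated the other way, with 4 of 5 GC-poor genes the highest of their group.

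**Figure D3:**
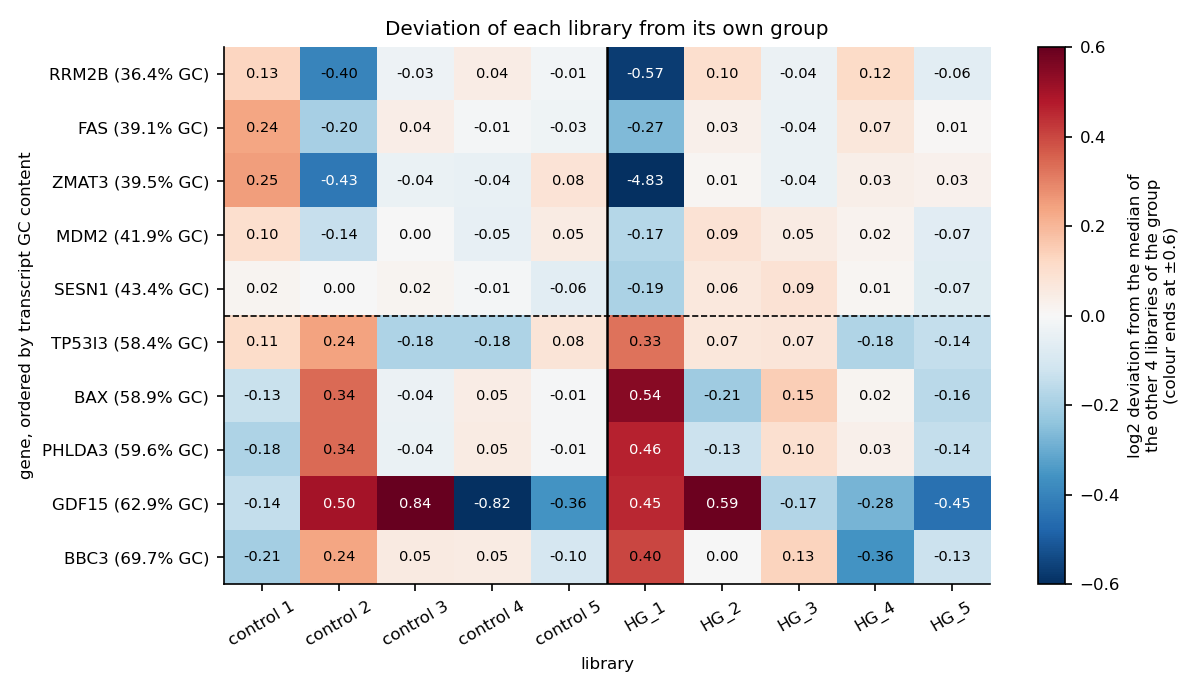
Log2 deviation of each library from the median of the other 4 libraries of its own group, for the 10 genes ordered by transcript GC content (lowest at the top; the colour ends at 0.6 in either direction). HG_1 and control replicate 2 are low for GC-poor genes and high for GC-rich genes, and ZMAT3 in HG_1 reaches -4.83.

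With the GC and length offsets, 6 of the 10 genes passed an adjusted p of 0.05, beside 29.3% of the 13538 rows in that fit. MDM2 (0.33), RRM2B (0.30), PHLDA3 (0.30), SESN1 (0.28) and BBC3 (0.28) were higher on the log2 scale, and TP53I3 (-0.20) was lower. The 5 higher genes did not overlap between the groups after the adjustment, beside 21.7% of all rows. Without HG_1 and with no offsets, 4 genes passed (MDM2, SESN1 and RRM2B higher, TP53I3 lower), beside 19.9% of the rows of that fit. Leaving out HG_1 and keeping the offsets, an alternative chosen after the values were seen, gave 6 as well, beside 28.5% of the rows of that fit.

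The pattern over libraries, with the group difference removed, was compared between each gene that passed and 12365 other rows, as a description over 10 libraries that share their depth and base composition. The residuals of MDM2 were most like those of SNX29 (Pearson r 0.977), UBE4A (0.972) and DNAJC3 (0.971). Those of SESN1 were most like NDFIP1 (0.947), IGIP (0.94) and GK (0.925).

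Beyond these 10, a list of 56 further p53 targets had 49 genes that passed the filter on low counts. In edgeR 18 of the 49 passed (36.7%, beside 15.4% of all rows), 14 higher and 4 lower, and 31 did not, with a median log2 fold change of 0.13. The list was written with earlier results of these data known, and its count is a description. E2F7, a repressor of cell cycle genes, rose from 39.2 ± 4.53 to 58.5 ± 10.2 CPM (log2 fold change 0.58, edgeR adjusted p = 0.0108). Its groups overlapped, with 42.7 CPM in HG_1 and 44.0 CPM in control replicate 3. CDKN1A, the gene of p21, held 474, 578, 503, 509 and 503 CPM in the control libraries and 807, 693, 725, 665 and 635 CPM in HG_1 to HG_5, with no overlap (log2 fold change 0.46, SE 0.07, adjusted p = 0.00183). BTG2, an antiproliferative factor (0.43), PRKAB1, a subunit of the energy sensor AMPK (0.41), and ANKRA2 (0.41) followed.

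The 4 genes of that list that fell were ENC1 (-0.53, adjusted p = 0.00447), EPHA2, an ephrin receptor (-0.42, adjusted p = 0.000244), DRAM1, a lysosomal protein of autophagy (-0.29, adjusted p = 0.00251), and PLK2, a polo-like kinase (-0.26, adjusted p = 0.00312). In each of the 4 all HG libraries lay below all control libraries. Without HG_1, 23 of the 49 passed, 16 higher and 7 lower, and with the GC and length offsets 26 passed, 20 higher and 6 lower, beside 19.9% and 29.3% of all rows in these fits.

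**Figure D4:**
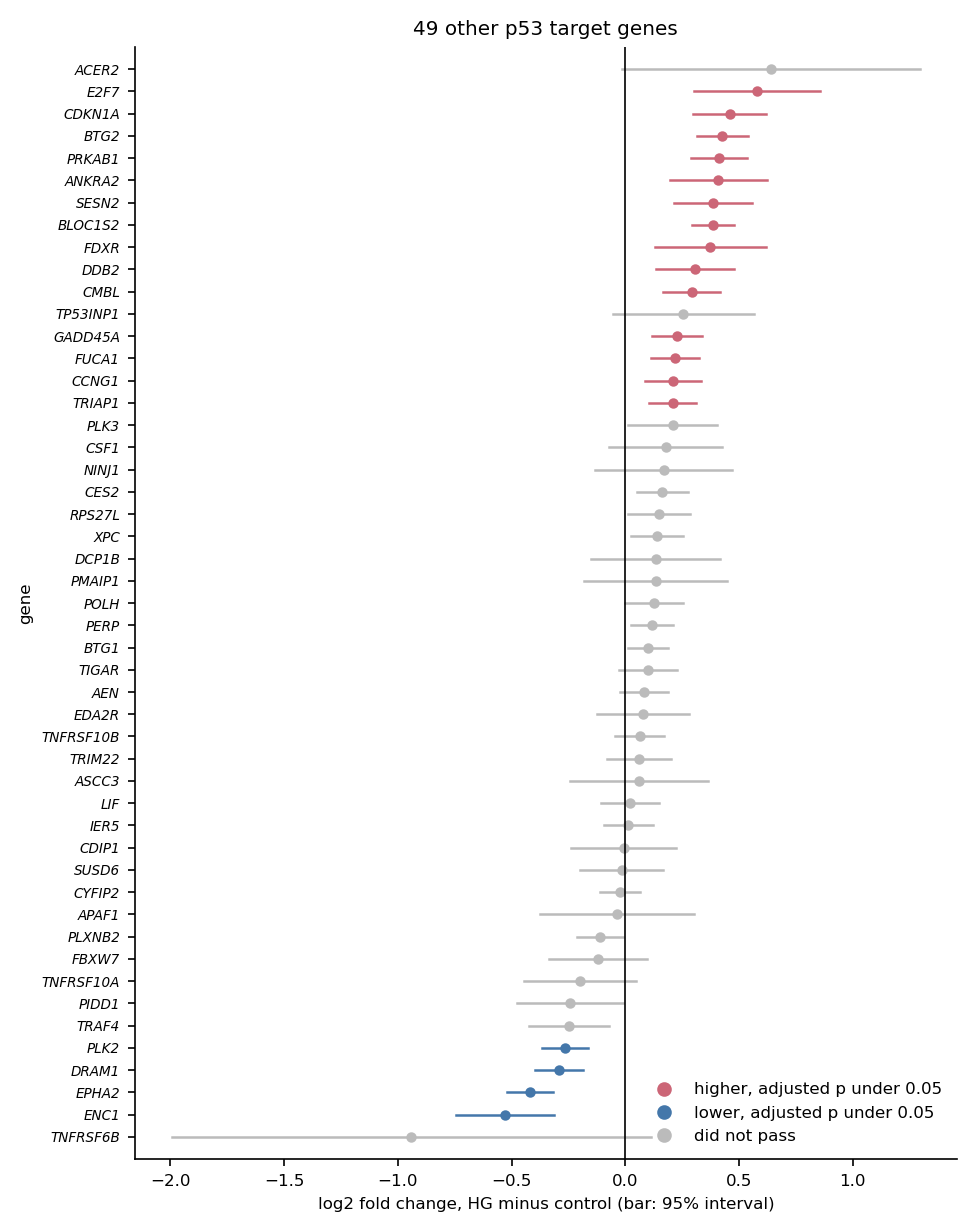
Log2 fold change (HG minus control) with its 95% interval from edgeR for the 49 further p53 target genes that were tested, ordered by value; colours mark the 14 that were higher and the 4 that were lower at an adjusted p under 0.05. CDKN1A and E2F7 lead the genes that rose, and ENC1 is the lowest of those that fell.

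Of 20 genes that act on p53, 1 passed with all libraries, 2 without HG_1, 2 without HG_5, 3 without control replicate 2, 3 in DESeq2 and 4 with the GC and length offsets. These shares, 5% with all libraries and 20% with the offsets, stand beside 15.4% and 29.3% of all rows in the same fits. TP63, a relative of p53, fell from 1.80 ± 0.433 to 0.616 ± 0.226 CPM (log2 fold change -1.55, SE 0.30, adjusted p = 0.00556). MDM4, the partner of MDM2, and PPM1D, a phosphatase that turns p53 off, had log2 fold changes of -0.03 (adjusted p = 0.769) and -0.14 (adjusted p = 0.399).

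Of 34 partners and paralogs of the 10 genes, 30 were tested and 8 passed (26.7%, beside 15.4% of all rows), 6 higher and 2 lower. The lists share genes, so their counts are not separate. SESN2 is counted here, among the further p53 targets and among the ATF4 and CHOP genes below, and PMAIP1 here and among the further targets. SESN2, the stress-induced sestrin, rose from 16.6 ± 0.594 to 21.7 ± 2.37 CPM (log2 fold change 0.39, adjusted p = 0.0074), and SESN3 stood at a log2 value of -0.25 (adjusted p = 0.392). HRK, a BH3-only protein, rose from 14.1 ± 3.40 to 24.1 ± 1.73 CPM (0.77, adjusted p = 0.00927), CYCS, cytochrome c, from 230 ± 13.7 to 299.6 ± 19.0 CPM (0.38, adjusted p = 0.00135), and BCL2L2, a survival protein, by 0.21 (adjusted p = 0.016). BOK, a relative of BAX, fell by 0.33 on the log2 scale (edgeR adjusted p = 0.0327), with groups that overlapped. PMAIP1, the p53-induced BH3-only protein NOXA, stood at a log2 fold change of 0.13 (adjusted p = 0.607), and the survival genes BCL2L1 and MCL1 had 0.12 (adjusted p = 0.2) and 0.02 (adjusted p = 0.882).

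p53 lowers many cell cycle genes through p21 and the DREAM complex, a repressor assembled on their promoters. Of 24 such genes 9 passed (37.5%, beside 15.4% of all rows), 6 lower and 3 higher, with a median log2 fold change of -0.0064. The split by direction depended on the fit. Without HG_1, 13 passed, 7 higher and 6 lower, and with the GC and length offsets 12 passed, 5 higher and 7 lower, beside 19.9% and 29.3% of all rows. With the column number of the libraries as a block in the fit, 4 passed, all lower, beside 1071 of 14936 rows. MYBL2, a MYB-family transcription factor, fell (-0.85, adjusted p = 0.000131). E2F1 (-0.63, adjusted p = 0.000802), MCM5 (-0.56, adjusted p = 0.000866), CDC25A (-0.35, adjusted p = 0.00537) and MCM2 (-0.26, adjusted p = 0.00883) fell as well. CDC25C (0.58, edgeR adjusted p = 0.00419), CCNB2 (0.31, adjusted p = 0.0126) and CENPF (0.30, adjusted p = 0.0422, with groups that overlapped) rose. Leaving out any 1 library other than HG_1 left 2 genes higher and 6 lower.

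SESN2 and several other p53 targets are also targets of ATF4 and CHOP, transcription factors of the integrated stress response. Of 12 genes of that response 8 passed (66.7%, beside 15.4% of all rows), all of them higher, with a median log2 fold change of 0.39. ASNS, asparagine synthetase, rose from 23.2 ± 0.874 to 76.0 ± 3.57 CPM (1.72, adjusted p = 3.62e-08), CHAC1 by 1.67 (adjusted p = 0.00402), TRIB3 by 1.27 (adjusted p = 2.86e-05), DDIT3, the gene of CHOP, by 0.78 (adjusted p = 0.00441) and ATF3 by 0.68 (adjusted p = 0.000558), all on the log2 scale.

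**Figure D5:**
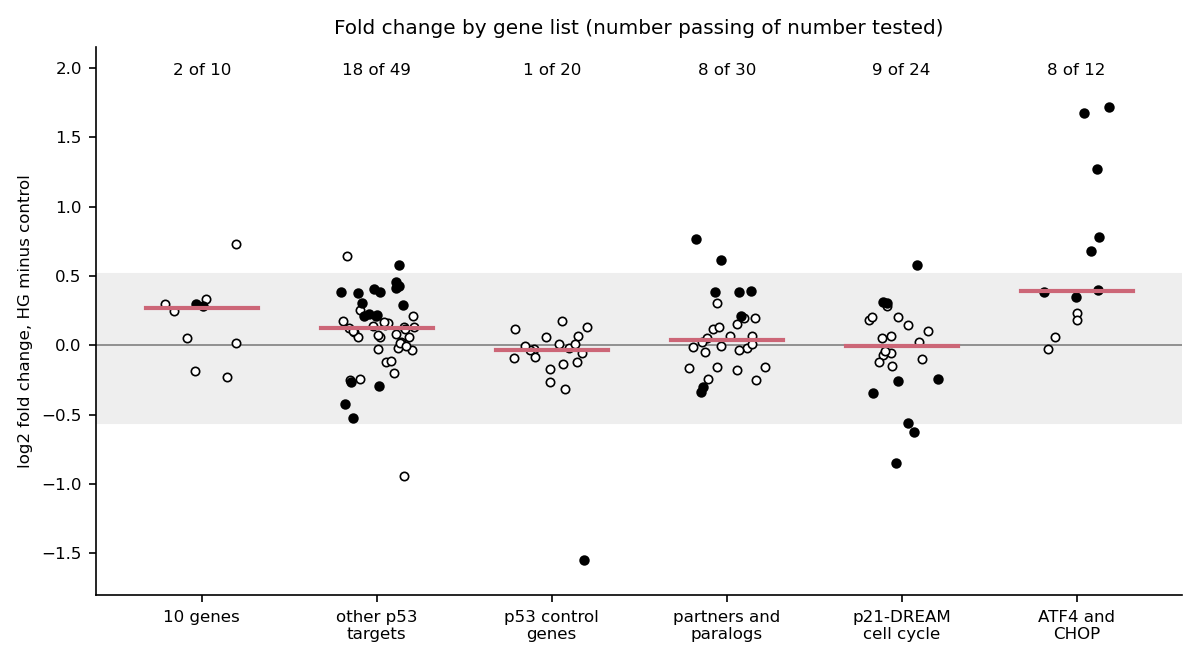
Log2 fold change (HG minus control, edgeR) of every tested gene in 6 lists; filled points passed an adjusted p of 0.05, the bar is the median of the list, and the grey band spans the 5th to 95th percentile of all rows tested (-0.559 to 0.511). The 10 genes lie within the band except GDF15, while 5 genes of the ATF4 and CHOP list lie above it.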

How the data were processed

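RNA of 10 ARPE-19 libraries was sequenced. The authors deposited 1 table of unnormalized read counts per gene row and a table of FPKM values, which the authors had scaled by transcript length and library size. Per the labels, the submitters' processing notes name fastp 0.20.1, HISAT2 2.2.1 and GRCh38. The counting program and annotation are not given in the sources used here.

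Counts were tested with edgeR 4.0.16 in R 4.3.3 (default low-count filter, TMM, quasi-likelihood test, Benjamini-Hochberg over 14936 rows), tested first on simulated data. There edgeR called 44.8% of the genes set to a log2 change of 0.5 and 83.6% at 1, so a small change can go uncalled. Log2 CPM used a prior count of 2. The permutation test was exact. Alternatives were DESeq2 1.42.0, limma 3.58.1 on log2(FPKM + 1) and log2(FPKM + 0.1), other scalings and filters, libraries left out, the column number as a block, and offsets for GC content and length (lowess, span 0.3, GENCODE annotation, 13538 rows).

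The 10 genes and all lists were chosen with earlier results of these data known. Named were all 10 genes, fixed partners, control and partner genes with an adjusted p under 0.05, and up to 5 genes at each end of those that passed in the other lists. 2 named genes and 1 marker are counted in the totals and not reported here. HG columns could not be tied to single samples. Intervals on counts of 0 cover counting error only, and depth was 32448991 to 45864176 counts per library.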

Additional observations from a re-analysis of the deposited data

Results flagged for a closer look

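Among 102 groups of 5 libraries (53 named genes, leaving out groups at 0), 12 held 1 library far from the other 4 by Dixon's gap test, where chance gives about 1 in 20. Of the 12, 9 were HG_1 or control replicate 2.

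In the HG group, HG_1 was far below for ZMAT3 (5.97 CPM, the others 167 to 173), RRM2B (134 CPM, the others 190.1 to 207) and MCL1 (208 CPM, the others 245 to 259). HG_1 was far above for PHLDA3 (270 CPM, the others 187 to 210.0), FADD (56.5 CPM, the others 43.0 to 45.3), BOK (123 CPM, the others 93.1 to 100.3) and VAT1 (771 CPM, the others 602 to 626). Transcript GC content is 36.4% to 45.1% for ZMAT3, RRM2B and MCL1 and 58.6% to 66% for PHLDA3, FADD, BOK and VAT1. In the control group, replicate 2 was far above for BOK (155 CPM, the others 118 to 127) and MYBL2 (89.7 CPM, the others 71.1 to 74.1).

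The 3 other cases were control replicate 5 for SESN1 (37.5 CPM, the others 38.9 to 39.5), control replicate 3 for PHLDA1 (102 CPM, the others 87.3 to 88.5) and control replicate 1 for HRK (8.22 CPM, the others 14.6 to 16.7).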

How the results depend on the processing

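MDM2 passed in 23 of 24 alternatives and SESN1 in all 24, and GDF15, BAX, FAS and ZMAT3 passed in none that tested them. The count of the 10 genes was 2 (beside 15.4% of all rows), 4 without HG_1 (19.9%) and 5 without both HG_1 and control replicate 2 (4035 of 14899 rows). It was 6 with GC and length offsets (29.3%), also without HG_1 (28.5%). At a fold change above 1.5 it was 1 with unadjusted p (5.17%) and 0 with adjusted p (3.69%). Without overlap were 2 genes (beside 13.6% of all rows), 5 with the offsets (21.7%) and 1 in FPKM (12.6%). Leaving out each library gave 2 to 4 of the 10 genes, 15 to 23 of the further targets, 1 to 3 of the p53 control genes, 8 to 13 of the cell cycle genes and 1648 to 2993 of all rows, the highest without HG_1 except for the control genes (without control replicate 2). Over all rows the count was 2303, and 4035 without both libraries, 3965 with the offsets and 3888 with the offsets without HG_1. Of the p53 control genes 3 passed in DESeq2, 2 at 10 counts in every library, 0 at a mean FPKM of at least 1, 4 without both libraries, 4 with the offsets, 5 with the offsets without HG_1 and 2 without assembled loci named MSTRG.

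The replicate block by column number gave 1071 of 14936 rows, 1 of the 10 genes (SESN1, edgeR adjusted p = 0.0373, MDM2 at 0.059) and 11 further targets. It also gave 4 cell cycle genes, all lower. With the offsets the block gave 6 of the 10 and 3 p53 control genes, beside 3170 of 13538 rows. Deviations of same-numbered libraries correlated at -0.0656 to 0.0392, beside -0.0869 to 0.188 for the other pairs. These values show no pairing by column number, but a weak one could be missed.

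BAX changed sign to -0.11 without HG_1, -0.03 without control replicate 1, -0.0042 without control replicate 3, -0.031 without both libraries, -0.024 with the offsets, -0.026 with block and offsets, -0.043 with the offsets without HG_1, and -0.017 in limma on FPKM with either pseudocount or filter. With 1 library left out BAX ran to 0.092 (without control replicate 2), and ZMAT3 ran from -0.32 (without HG_4) to 0.083 (without HG_1), where it changed sign, as it did without HG_1 with the offsets (0.037). The causes were not tested. GDF15 held 6 to 32 counts in a library, and how far its spread is counting error was not tested.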
